A study of Mus musculus with 8 samples.

Results

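The MYB, RFX and TCFL5 transcription factors were followed from pachytene spermatocytes (PS), the cells of meiotic prophase, to round spermatids (RS), the haploid cells that form after meiosis. The 8 genes, Mybl1, Myb, Mybl2, Tcfl5, Rfx1, Rfx2, Rfx3 and Rfx4, were taken by name from the 23343 genes of the RNA-seq tables, and all 8 were found. RNA-seq came from PS and RS of adult Rnf8;Scml2-dKO mice, which lack the ubiquitin ligase RNF8 and the germline Polycomb protein SCML2. H3K27ac ChIP-seq came from PS and RS of adult wild-type mice. All mice were C57BL/6, and each stage of each assay had 2 biological replicates, 8 samples in all. Cells were enriched by sedimentation in a BSA gradient and not sorted by a marker, and on the small scale used for the dKO a single male yields both PS and RS. The authors checked the purity of the fractions by fluorescence microscopy after staining of the nuclei. Every RNA-seq sample carried both deletions, and no wild-type RNA was analysed here, so RNA and H3K27ac were measured in different genotypes and no test was made between them.

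MYB proteins bind DNA through MYB repeats. A-MYB, the product of Mybl1, is the master regulator of pachytene transcription in male meiosis and of pachytene piRNA precursors, c-MYB (Myb) is known from blood progenitors, and B-MYB (Mybl2) acts with the MuvB complex in the cell cycle. RFX proteins bind the X-box through a winged-helix domain and are best known as regulators of ciliary genes, and RFX2 is required for spermatid development. TCFL5 is a basic helix-loop-helix factor of spermatocytes. H3K27ac, acetylation of lysine 27 on histone H3, marks active promoters and enhancers.

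The promoter sequences of the factors that turned out to have an MYB motif are given first, since H3K27ac at these start sites is described further on. The sequences are those of RefSeq on GRCm38.p6, the same assembly as the mm10 of the deposited files. Table entries were matched for 7 of the 8 genes, with 2 entries for Rfx4, 8 promoters in all. Mybl1 had no entry. Each window runs from 250 bases before to 50 bases after the start, and the bases before the start are shown, 5′ to 3′ on the strand of the gene. Both strands were searched for GGCNGTT (the MYB site core), GTTGCC (a half-site of the X-box, which is an imperfect inverted repeat), CACGTG (the E-box) and TGACGTCA (the CRE). Capitals mark the matches.
Rfx2, chr17:56831009-56831258, minus strand: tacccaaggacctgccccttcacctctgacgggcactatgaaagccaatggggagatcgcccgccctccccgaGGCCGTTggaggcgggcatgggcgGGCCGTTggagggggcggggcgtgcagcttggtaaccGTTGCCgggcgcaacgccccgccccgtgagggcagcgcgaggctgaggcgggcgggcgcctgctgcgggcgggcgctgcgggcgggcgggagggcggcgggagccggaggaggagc
Tcfl5, chr2:180642692-180642941, minus strand: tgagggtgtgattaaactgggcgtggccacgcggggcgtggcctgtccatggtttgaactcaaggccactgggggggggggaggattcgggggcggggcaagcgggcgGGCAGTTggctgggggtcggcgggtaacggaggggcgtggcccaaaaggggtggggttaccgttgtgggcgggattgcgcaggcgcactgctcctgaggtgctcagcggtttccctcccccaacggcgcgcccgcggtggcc
Rfx4 downstream start, chr10:84837898-84838147, plus strand: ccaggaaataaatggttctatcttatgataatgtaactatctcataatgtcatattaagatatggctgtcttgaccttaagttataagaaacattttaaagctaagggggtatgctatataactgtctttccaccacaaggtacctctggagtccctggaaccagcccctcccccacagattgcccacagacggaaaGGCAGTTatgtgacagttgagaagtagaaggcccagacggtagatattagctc

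GGCNGTT was found in 3 of the 8 windows, those of Rfx2, Tcfl5 and the downstream start of Rfx4, and in 12.1% of the 32851 RefSeq promoters of the same length. In Rfx2 the motif began 177 and 153 bases before the start, in Tcfl5 142 bases before it and at Rfx4 53 bases before it. GTTGCC was also found in 3 of the 8 windows, against 12.5% of all promoters. It lay 116 bases before the start of Rfx2, and 1 base after the start of Rfx1 and 31 bases after that of Rfx3, which are outside the bases shown. The 3 motifs of Rfx2 did not overlap each other. CACGTG and TGACGTCA, which are in 7.15% and 1.79% of all promoters, were in none of the 8 windows. A match describes the letters of the window, and no binding of any factor was measured.

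The upstream start of Rfx4, which had no match to any of the 4 motifs, is shown for comparison with the downstream start. The windows of 201 bases around the strongest H3K27ac summits of an Rfx4 intron in RS and of the region upstream of Rfx3 in PS are shown because they were the strongest of each gene outside its promoters in RS replicate 1 and PS replicate 2, respectively. They are on the plus strand and had no match to the 4 motifs.
Rfx4 upstream start, chr10:84755798-84756047, plus strand: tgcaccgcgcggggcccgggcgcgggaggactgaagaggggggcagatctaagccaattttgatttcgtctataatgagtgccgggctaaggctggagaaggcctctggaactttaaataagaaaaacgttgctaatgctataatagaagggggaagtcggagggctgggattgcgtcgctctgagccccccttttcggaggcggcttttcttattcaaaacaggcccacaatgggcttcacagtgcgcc
Rfx4 intronic summit, chr10:84762424-84762624: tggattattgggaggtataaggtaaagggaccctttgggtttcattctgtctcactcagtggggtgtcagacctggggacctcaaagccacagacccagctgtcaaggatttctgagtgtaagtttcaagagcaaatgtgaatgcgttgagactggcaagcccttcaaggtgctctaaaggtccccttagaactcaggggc
Rfx3 upstream summit, chr19:28027457-28027657: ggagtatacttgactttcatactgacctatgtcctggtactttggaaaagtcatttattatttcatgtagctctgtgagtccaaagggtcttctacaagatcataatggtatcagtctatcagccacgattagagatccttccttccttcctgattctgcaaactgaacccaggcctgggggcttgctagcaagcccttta

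The RNA-seq samples held 9655405 to 12289694 reads on genes, and the 8 factors together took 0.108% to 0.132% of them. A count of 0 allows up to 3 reads, or 0.244 to 0.311 CPM (reads scaled to library size), by counting error only. Rnf8 still had 93 and 110 reads in PS and 61 and 50 in RS, and Scml2 had 40, 92, 44 and 98, and a single value over a whole gene does not separate the deleted part from the rest. All 10 round spermatid markers were called higher in RS, and 6 of 10 pachytene markers were called lower. The summed level of the 6 Leydig cell markers was 729 and 547 RPKM in PS and 68.3 and 42.6 RPKM in RS, with all 6 called lower in RS. The 6 macrophage and blood markers summed to 1.09 and 1.20 RPKM in PS and to 12.6 and 10.98 RPKM in RS. Of these, 4 were called higher in RS and the 2 haemoglobin genes were at 0 in every sample. Cd68 had 4 and 6 reads in PS, Adgre1 had 6 and 9, and Ptprc had 1 and 0. They passed the filter of 10 counts in 2 samples only through RS, so they could be called in that direction only. Of the markers of other cells, 5 of 10 of spermatogonia and 2 of 6 tested of Sertoli cells were called higher in RS. Of peritubular cells 1 of 5 was called higher, and no marker of these 3 lists was called lower. Over all genes tested, 30.4% were called higher in RS and 27.6% lower. The Sertoli marker Rhox5, with 4 and 1 reads in PS, passed the filter only through RS. So did the peritubular marker Cnn1, with 1 and 6. The part of cells other than PS and RS in the values of the factors was not tested.

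Among the 7 factors with enough reads, Rfx1 and Rfx3 were higher in RS, Mybl1 and Tcfl5 were lower in RS, and Mybl2, Rfx2 and Rfx4 were not called. Calls were made by edgeR at an adjusted p under 0.05 over 14647 genes and more than 1.5-fold. At this threshold 30.4% of all genes were called higher in RS and 27.6% lower, and 2 of the 7 factors in each direction are close to these shares. RPKM, read counts scaled to transcript length and library size, gives the levels, and fold changes come from the counts. In either assay, separation of 2 samples from 2 is weak evidence, since an exact permutation test then cannot go below p = 0.333. The share of all genes or promoters whose stages did not overlap was not counted. In bulk samples a gain or loss of cells of a type and of RNA per cell cannot be told apart.

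**Figure D1:**
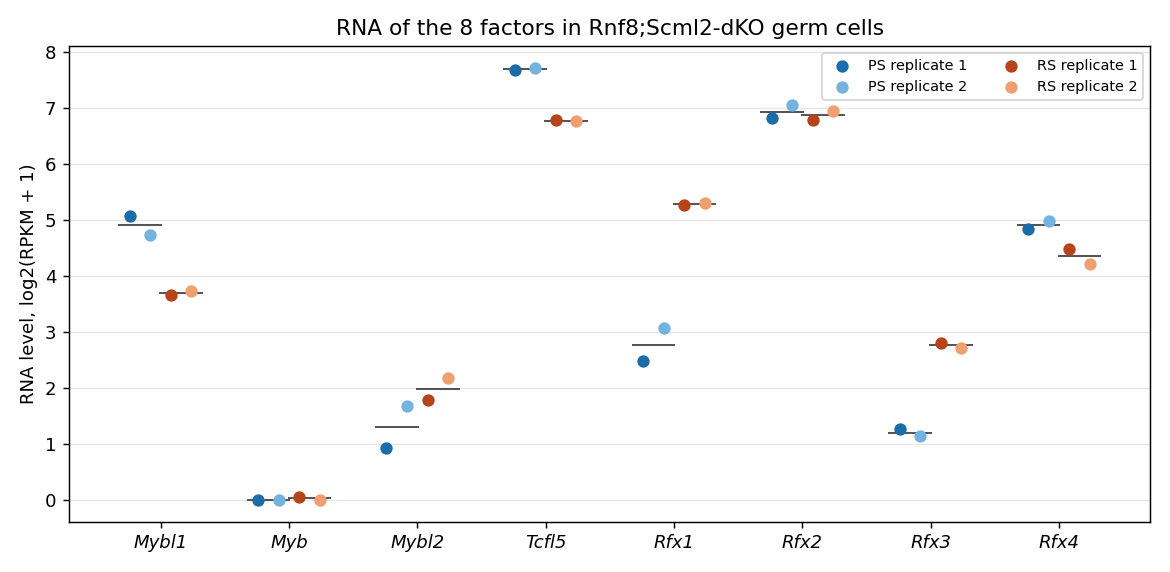
RNA level of each factor as log2(RPKM + 1) in the 2 PS (blue) and 2 RS (orange) samples of the Rnf8;Scml2-dKO, each point 1 sample and each bar the mean of a stage. Rfx1, Rfx3 and Mybl2 sit higher in both RS samples, and Mybl1, Tcfl5 and Rfx4 sit lower. Of these, Mybl2 and Rfx4 were not called. The Rfx2 points of the stages overlap, and Myb is at or near 0.

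The most abundant factor in PS was Tcfl5 (chr2:180621957-180642691), with 204 and 211 RPKM in PS and 109 and 108 RPKM in RS. It fell 1.86-fold (log2 fold change -0.90, SE 0.11, adjusted p = 2.01e-04), and the samples of the stages did not overlap. The master regulator Mybl1 (chr1:9668835-9700209) had 32.6 and 25.8 RPKM in PS and 11.7 and 12.3 RPKM in RS, a 2.36-fold fall (log2 fold change -1.24, SE 0.15, adjusted p = 1.44e-04). Both PS samples of Mybl1 were above both RS samples. Rfx2 (chr17:56775897-56831008) had 113 and 132 RPKM in PS and 109 and 123 RPKM in RS, with overlapping samples and a log2 fold change of -0.04 (SE 0.13, adjusted p = 0.829). Its sign changed when 1 library was left out, to 0.13 without PS replicate 2 and 0.14 without RS replicate 1.

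Rfx1 (chr8:84066836-84096992) had the largest change of the factors, from 4.61 and 7.38 RPKM in PS to 37.7 and 38.6 RPKM in RS. The rise was 6.53-fold (log2 fold change 2.71, SE 0.22, adjusted p = 1.71e-05). Rfx3 (chr19:27761721-28011166) had 1.40 and 1.21 RPKM in PS and 5.98 and 5.61 RPKM in RS, a 4.60-fold rise (log2 fold change 2.20, SE 0.17, adjusted p = 1.20e-05). Neither gene had overlapping stages. Mybl2 (chr2:163054635-163084687), the cell cycle member of the MYB family, was low throughout, at 0.901 and 2.21 RPKM in PS and 2.43 and 3.51 RPKM in RS, with 38, 91, 126 and 153 reads. Its log2 fold change of 0.96 (SE 0.40, adjusted p = 0.0604) was not called, although it passed the threshold without PS replicate 2 (1.80, adjusted p = 2.35e-04) and without RS replicate 1 (1.29, adjusted p = 0.0346). It was 0.41 (adjusted p = 0.206) without PS replicate 1 and 0.78 (adjusted p = 0.223) without RS replicate 2. Myb (chr10:21124930-21160984) had 0 reads in 3 samples and 1 read in RS replicate 1 and was not tested.

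By mean level, the order in PS was Tcfl5 with 208 ± 4.99 RPKM (SD, n = 2), Rfx2 with 122 ± 13.3, Mybl1 with 29.2 ± 4.82, Rfx4 with 29.2 ± 2.04, Rfx1 with 5.99 ± 1.96, Mybl2 with 1.56 ± 0.928 and Rfx3 with 1.30 ± 0.135. The samples of Mybl1 overlapped those of Rfx4, and those of Mybl2 overlapped those of Rfx3. In RS the order was Rfx2 with 116 ± 10.0 RPKM, Tcfl5 with 109 ± 0.981, Rfx1 with 38.2 ± 0.621, Rfx4 with 19.6 ± 2.74, Mybl1 with 12.0 ± 0.425, Rfx3 with 5.79 ± 0.267 and Mybl2 with 2.97 ± 0.761. Rfx1 stood below Mybl1 and Rfx4 in PS and above both in RS. In RS the lowest sample of Rfx2, 109.295 RPKM, lay just above the highest of Tcfl5, 109.233 RPKM, and the difference between these neighbours was not tested.

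The genes whose levels over the 4 RNA-seq samples were most like those of a factor were found by the Euclidean distance of log2(RPKM + 1). For Mybl1 they were Sf3b3 at 0.0826, Bloc1s2 at 0.0887 and Oard1 at 0.125. Sf3b3, for example, had 31.8 and 26.1 RPKM in PS and 11.9 and 11.7 RPKM in RS. For Tcfl5 they were Rpl7a at 0.169, 4930511M11Rik at 0.194 and Hint1 at 0.196. For Rfx2 they were C530008M17Rik at 0.0903, the piRNA pathway gene Tdrd7 at 0.107 and Aspscr1 at 0.197.

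Rfx4 as a whole was not called, with 27.7 and 30.6 RPKM in PS and 21.5 and 17.6 RPKM in RS (log2 fold change -0.35, SE 0.16, adjusted p = 0.0783). The 2 rows of the gene moved in opposite directions. The row with the upstream start, chr10:84756048-84906536, had 3.83 and 2.21 RPKM in PS and 18.1 and 12.9 RPKM in RS. The row with the downstream start, chr10:84838148-84906538, had 23.9 and 28.4 RPKM in PS and 3.43 and 4.77 RPKM in RS. The share of the gene's reads in the downstream row was 83.8% and 91.5% in PS and 13.6% and 23.5% in RS.

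With each row fitted singly over 15626 rows, a fit added after the values of the rows were seen, the upstream row rose (log2 fold change 2.41, SE 0.32, adjusted p = 0.00293) and the downstream row fell (-2.63, SE 0.22, adjusted p = 8.20e-04). In that fit 27.1% of rows were called higher in RS and 24.7% lower. The 2 rows differed by 5.05 in log2 fold change, and an edgeR test for unequal change within a gene gave an adjusted p of 0.00559 over 906 genes, 15.3% of which were called. Without RS replicate 1 that adjusted p was 0.0699 and without RS replicate 2 it was 0.0652, and each row alone was called with any library left out. The authors divided reads between isoforms with an expectation-maximization algorithm, and 3140 of the 3274 exonic bases of the downstream transcript (95.9%) also belong to the upstream one, so the 2 rows are estimates that share most of their exons. A read from shared exons that is given to 1 row is taken from the other. The row fits and the test for unequal change took the estimates as counts, so their p-values leave out the uncertainty of the division.

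Rfx3 also had 2 rows. The row starting at chr19:28011166 had 72 and 77 reads in PS and 113 and 258 in RS, and the row starting at chr19:27982948 had 73 and 45 reads in PS and 652 and 346 in RS. The second rose by 2.91 on the log2 scale (SE 0.34, adjusted p = 0.00202), the first had a log2 fold change of 1.22 (SE 0.49, adjusted p = 0.0877), and unequal change was not called (adjusted p = 0.234). Without RS replicate 1 the first row was called too, at 1.85 (adjusted p = 0.0116), and without RS replicate 2 its value was 0.44 (adjusted p = 0.373). The start of the second row differs between annotations. GENCODE has a protein-coding Rfx3 transcript starting at 27982948, as in the deposited row, and the RefSeq release used for the sequences places both transcripts at 28011166. No sample had an H3K27ac peak within 2 kb of 27982948.

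At the start sites, H3K27ac was higher in PS at Mybl1, Rfx2 and Rfx4 and higher in RS at Rfx1, while Tcfl5, Mybl2 and Rfx3 were not called and Myb had no peak within 2 kb in any sample. The value is the highest fold enrichment of a peak summit within 2 kb of a start, with 0 where there was no peak. Differences were tested with limma on log2(1 + fold enrichment) after each sample was centred on the promoters with a peak in all 4 samples, and calls were made at an adjusted p under 0.05 with no threshold on the size of the difference. Over 13643 promoters 18% were called higher in RS and 16.5% lower, against 1 and 3 of the 7 factors. Without the centring the median difference of all promoters was -0.43, against -0.02 with it, and the split of calls was 714 higher and 2169 lower in place of 2459 and 2255.

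**Figure D2:**
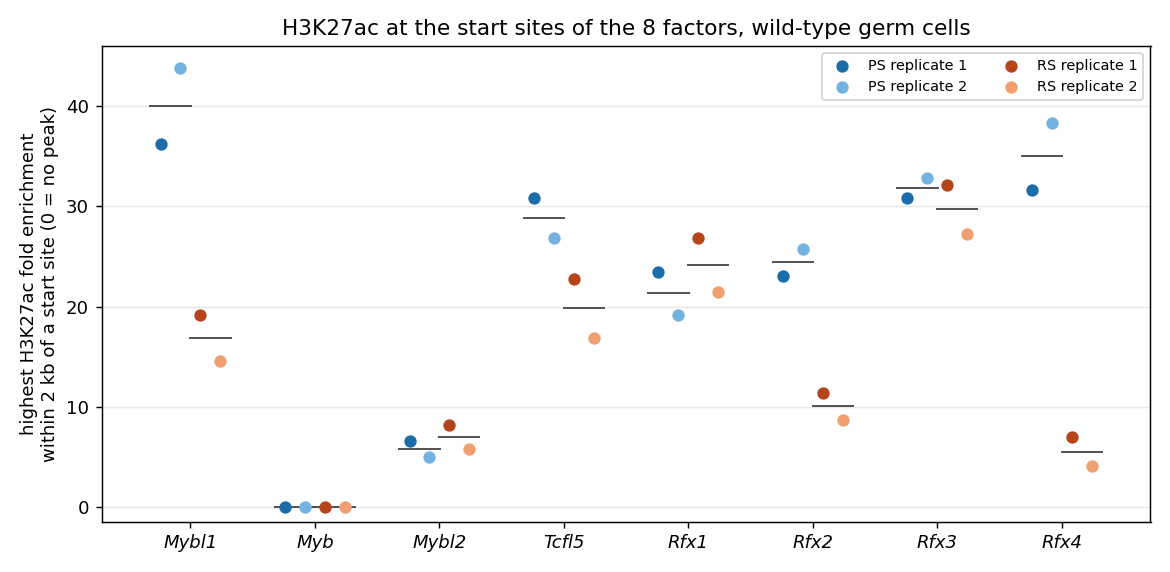
Highest H3K27ac fold enrichment within 2 kb of a start site in the 2 PS (blue) and 2 RS (orange) samples of wild type, each point 1 sample and each bar the mean of a stage, before centring. Mybl1, Tcfl5, Rfx2 and Rfx4 sit higher in both PS samples, and the stages overlap at Mybl2, Rfx1 and Rfx3. Tcfl5 was not called after centring.

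Fold enrichment at the Mybl1 promoter was 36.2 and 43.8 in PS and 19.1 and 14.5 in RS, a centred log2 difference of -0.80 (SE 0.11, adjusted p = 0.00365). The Rfx2 promoter, with the 2 MYB cores, had 23.0 and 25.8 in PS and 11.4 and 8.71 in RS, also a difference of -0.80 (SE 0.11, adjusted p = 0.00389). Neither promoter had overlapping stages. The RNA of Rfx2 in the dKO was 113 and 132 RPKM in PS and 109 and 123 RPKM in RS, and the 2 assays cannot be compared by a test. The Tcfl5 promoter had 30.9 and 26.9 in PS and 22.8 and 16.8 in RS, with no overlap of the stages before centring and a centred difference of -0.12 (SE 0.13, adjusted p = 0.499) that was 0.029 without PS replicate 1.

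The Rfx1 start lay in a region of 5892 bp, chr8:84064057-84069948, that also holds annotated starts of Gm10643 and C330011M18Rik. Its fold enrichment was 23.5 and 19.2 in PS and 26.9 and 21.5 in RS. The uncentred values of the stages overlapped, the centred difference was 0.58 (SE 0.14, adjusted p = 0.0253), and the call was lost without centring (0.17, adjusted p = 0.521) and without PS replicate 2 (0.39, adjusted p = 0.0909). The main Rfx3 start had 30.9 and 32.9 in PS and 32.1 and 27.3 in RS, a centred difference of 0.31 (SE 0.10, adjusted p = 0.0609) and -0.10 without centring. Mybl2 had the weakest promoter peaks, 6.58 and 4.93 in PS and 8.14 and 5.81 in RS (difference 0.65, SE 0.27, adjusted p = 0.116).

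The largest promoter difference of the factors was at the downstream start of Rfx4, with a fold enrichment of 31.7 and 38.4 in PS and 6.92 and 4.06 in RS (centred difference -2.09, SE 0.15, adjusted p = 0.00164). The difference was -3.26 (adjusted p = 0.0235) with a window of 1 kb, -1.42 (adjusted p = 0.00156) with 5 kb and -3.27 (adjusted p = 0.0426) with peaks of a −log10 q of at least 5. The value of RS replicate 2 came from a separate weak peak 1.29 to 2.01 kb upstream of the start, and no peak of that sample lay over the start itself. GENCODE also has a protein-coding transcript, Rfx4-205, that starts at 84834746. That start lies in the region chr10:84834418-84836053, 2.1 to 3.7 kb upstream of the downstream start, which had 8.64 and 9.32 in PS and 5.70 and 5.81 in RS. No sample had a peak within 2 kb of the upstream start. The nearest region with a peak in both replicates of a stage, chr10:84759426-84763851, lay 3.38 to 7.80 kb downstream of that start, in an intron. It had 6.58 and 9.32 in PS and 17.1 and 11.6 in RS. It holds the GENCODE start, at 84762238, of Rfx4-204 and Rfx4-206, which are annotated as processed transcripts. A region 14.5 to 17.2 kb upstream of the upstream start, chr10:84738805-84741555, had 4.53 and 5.48 in PS and 15.1 and 11.6 in RS. Both regions were stronger in both RS samples before any centring. The differences at these regions were not tested.

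**Figure D3:**
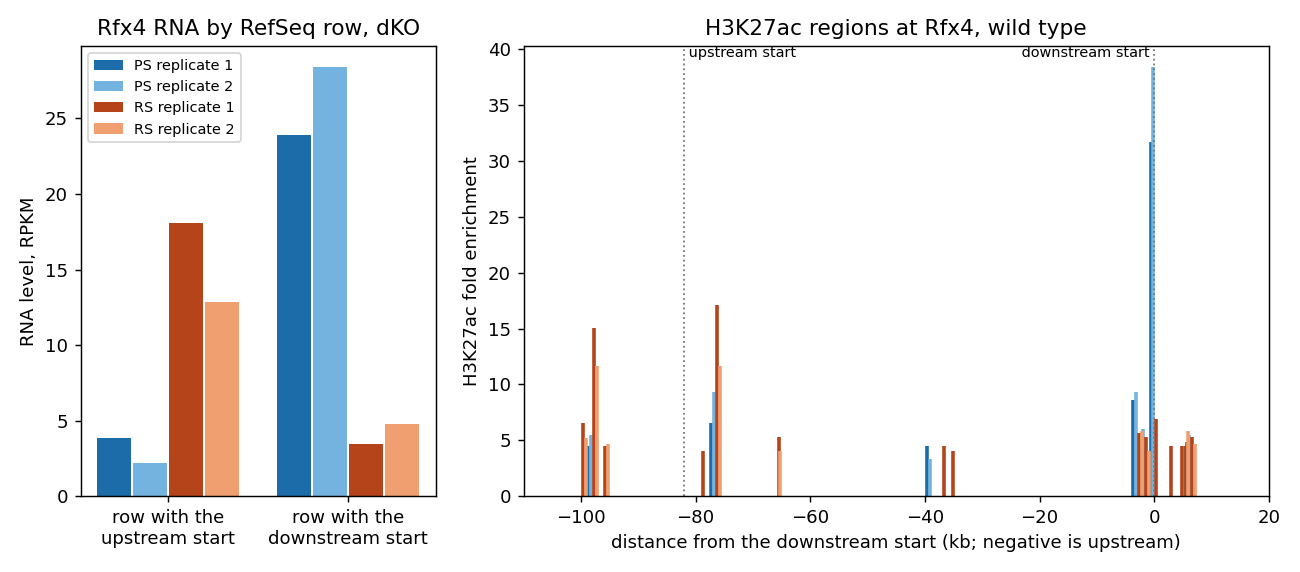
Left, RPKM of the 2 Rfx4 rows in each dKO sample (bars, 1 sample each). Right, H3K27ac fold enrichment of the regions around both start sites in wild type, drawn at the middle of each region with the 4 samples side by side. PS (blue) is highest at the downstream start, with 31.7 and 38.4, and RS (orange) is highest on either side of the upstream start, with 17.1 and 15.1 in RS replicate 1.

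H3K27ac regions were counted as present in a stage when both replicates had a peak. The factors had 30 PS regions, 11 of which had no RS region, and 24 RS regions, 7 of which had no PS region. Of all PS regions 32.7% had no RS region, and 39.4% of all RS regions had no PS region. Of the 11, 8 were at Rfx3, 2 at Rfx4 and 1 at Tcfl5, and the regions of a gene are not independent of each other. Leaving out RS replicate 2 raised the RS regions with no PS region to 62, leaving out RS replicate 1 raised them to 25, and leaving out PS replicate 2 raised the PS regions to 48, since a single library then stood for the stage. Peaks numbered 41095 and 49434 in PS and 74919 and 45863 in RS, and RS replicate 1 had the most peaks at the factors as well, 85 against 44 to 49 in the others.

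Upstream of Rfx3 a cluster of peaks was present in PS and nearly absent in RS. The strongest region, chr19:28026701-28028275, lay 15.5 to 17.1 kb upstream of the start and reached 37.9 and 51.0 in PS, 2.85 in RS replicate 1 and no peak in RS replicate 2. In PS it exceeded the Rfx3 promoter, at 30.9 and 32.9, in both samples. A second region, chr19:28023407-28025195, had 13.2 and 12.6 in PS and no peak in RS. The 4 other regions of the cluster with a peak in both PS samples had 3.84 to 9.32 and no peak in RS. In the other direction, an intergenic region whose nearest gene is Rfx3, chr19:27748318-27749564, had 4.94 and 4.38 in PS and 11.8 and 8.13 in RS.

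**Figure D4:**
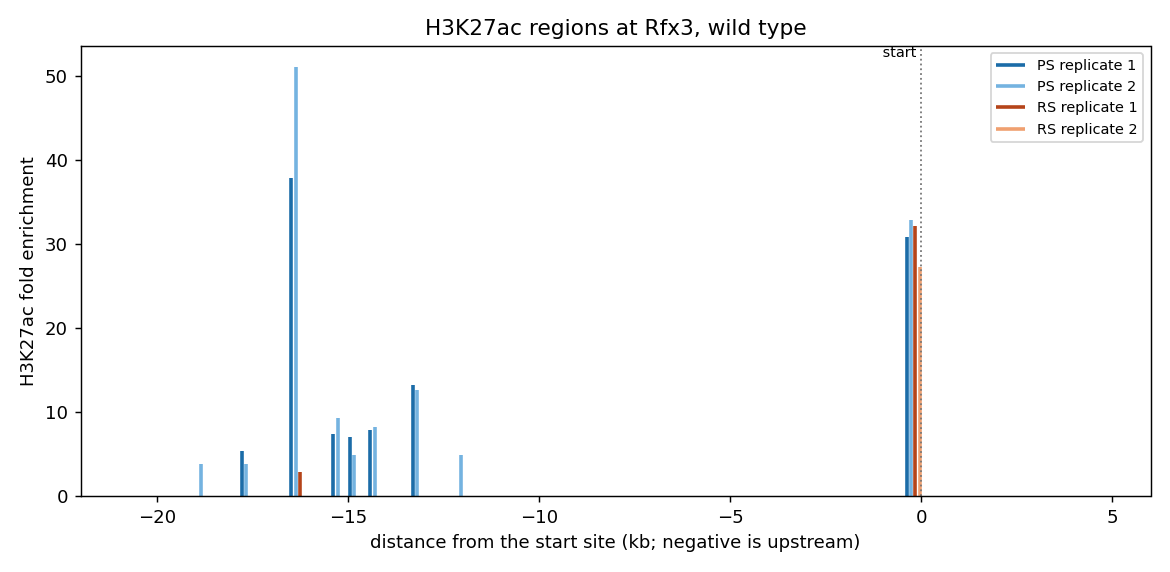
H3K27ac fold enrichment of the regions around the main Rfx3 start in wild type, drawn at the middle of each region with the 4 samples side by side. The promoter has peaks in all 4 samples, and the cluster upstream has peaks in both PS samples (blue) and a single RS peak, of 2.85.

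Among the other factors, an intronic region of Rfx2, chr17:56809220-56817175, lay 13.8 to 21.8 kb downstream of the start and had 11.1 and 13.7 in PS and 23.6 and 21.5 in RS, opposite to the promoter. A region of exon and intron in Tcfl5, chr2:180634036-180636626, had no peak and 3.84 in PS and 7.32 and 8.13 in RS. At the 3′ end of Mybl2, chr2:163084063-163084969 had 4.12 and 4.93 in PS and 31.3 and 23.2 in RS, but there the peaks also belong to the promoter of Gtsf1l. At the 3′ end of Rfx2, chr17:56774926-56779491 had 9.88 and 8.77 in PS and 34.6 and 15.1 in RS, and its peaks are shared with Prr22 and Nrtn. Mybl1 had no region in both replicates of a stage other than its promoter.

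The genes that work with these factors were described through 5 lists, by their median log2 fold change beside 0.01 over all genes tested. Over all genes tested, 30.4% were called higher in RS and 27.6% lower. Of 5 tested among the other RFX family and RFX complex genes, 2 were called lower in RS and 3 were not called, with a median of -0.57. Rfxap, a subunit of the complex that drives MHC class II genes, had 12.1 and 11.7 RPKM in PS and 1.92 and 1.85 RPKM in RS (log2 fold change -2.62), and Rfx5, its DNA-binding partner, had a log2 fold change of -1.27. Rfx6 had 0 RPKM in PS, 0.0925 and 0.0548 RPKM in RS, and was not tested. Of the 13 MuvB and DREAM complex genes, which include partners of MYB proteins, 4 were called higher and 6 lower, with a median of -0.45. The MuvB subunits Lin52 (-3.07) and Lin9 (-2.23) and the E2F partner Tfdp1 (-2.45) fell, and the pocket protein Rbl2 rose (2.88).

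**Figure D5:**
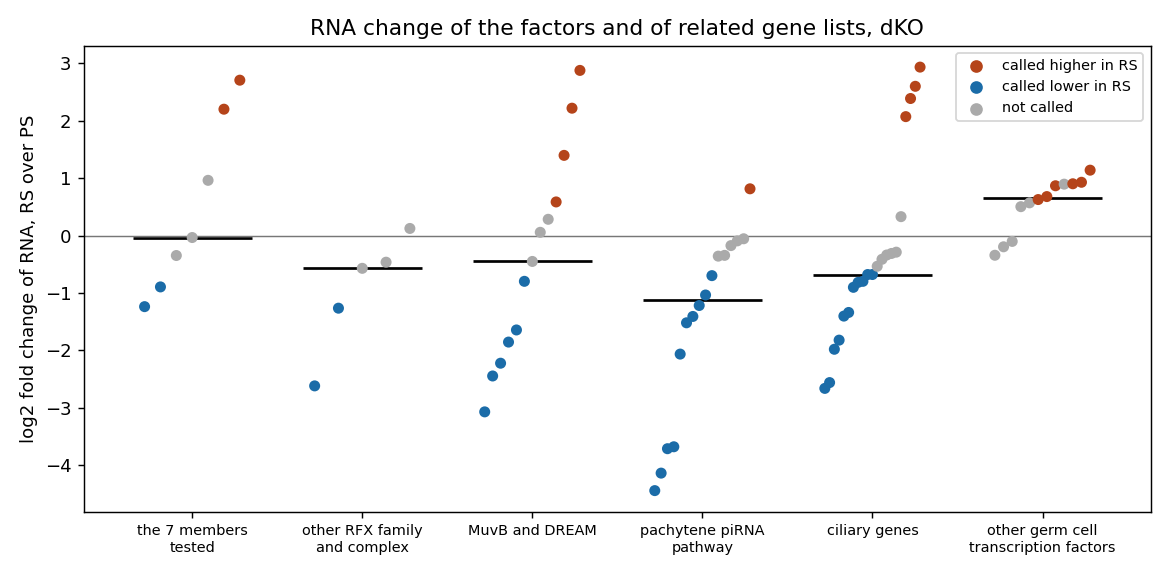
Log2 fold change of RNA, RS over PS of the dKO, for the 7 tested factors and 5 lists of related genes, each point 1 gene and each black line the median. Points are blue when called lower in RS, orange when called higher and grey when not called, and the pachytene piRNA pathway has the lowest median, -1.13.

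Of the 16 pachytene piRNA pathway genes, among which are known targets of A-MYB, 10 were called lower and 1 higher, with a median of -1.13. Piwil1, the PIWI protein that binds pachytene piRNAs, had 286 and 326 RPKM in PS and 9.91 and 17.6 RPKM in RS (log2 fold change -4.45). The Tudor domain genes Tdrd5 (-4.14) and Tdrd1 (-3.68) and the mitochondrial endonuclease gene Pld6 (-3.72) were the next by size, and Gtsf1, the gene called higher, had 0.81. Piwil1 is also in the list of pachytene markers. Of the 21 ciliary genes, the class that RFX factors are known to regulate, 4 were called higher and 11 lower, with a median of -0.68. The shares over all genes tested, 30.4% higher and 27.6% lower, stand beside each of these lists. Ift80, of intraflagellar transport, had a log2 fold change of -2.66 and Mks1, of the transition zone, -2.56. The dynein gene Dnah11 had 2.93, from at most 0.0194 RPKM in PS to at most 0.119 RPKM in RS. It had 3 and 1 reads in PS and 23 and 13 in RS, and so passed the count filter only through RS. Foxj1, a transcription factor of motile cilia, had 2.60, from 7.56 and 11.7 RPKM to 54.1 and 60.0 RPKM. Of the 12 other germ cell transcription factors, 6 were called higher and 6 were not called, with a median of 0.65. Sox30, needed for spermatid development, had 1.14, Zbtb16, known from spermatogonial stem cells, 0.93, the meiotic recombination factor Prdm9 0.90 and Dmrt1 0.87. Zbtb16 was low in both stages, at 1.27 and 0.634 RPKM in PS and 1.68 and 1.84 RPKM in RS. Prdm9 was low too, at 0.862 and 1.46 RPKM in PS and 1.88 and 2.36 RPKM in RS. Zbtb16 and Dmrt1 are also in the list of spermatogonium markers, whose summed level was 43.7 and 28.7 RPKM in PS and 57.0 and 54.2 RPKM in RS.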

How the data were processed

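H3K27ac ChIPmentation reads of wild-type PS and RS were aligned to mm10 by the authors with Bowtie, and peaks were called per sample with MACS2. The deposited lists give the pileup signal of each summit, its fold enrichment as a ratio to one background per sample, and −log10 p and q values. For the RNA-seq of the dKO, the authors used STAR (version 2.4.2a). They deposited read counts divided between RefSeq isoforms by expectation maximization, without normalization, and RPKM.

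Rows were summed per gene, and counts were rounded. edgeR 4.0.16 (TMM, quasi-likelihood test) was run on genes reaching 10 counts in 2 or more samples, with calls at a Benjamini-Hochberg adjusted p under 0.05 and 1.5-fold. An SE is the log2 fold change divided by the square root of F. limma 3.58.1 with a trend was run on log2(1 + fold enrichment) for genes with a peak in at least 2 samples, with calls at an adjusted p under 0.05 alone. Regions overlapped by at least 1 bp, with no test. Read totals of the ChIP-seq are not given, so depth is known through peak numbers. With 2 samples per group, an exact permutation test of a single value cannot go below p = 0.333. The labels call samples replicates and do not name the mice, so p-values rest on the spread between these samples. edgeR and limma moderate the variance of each gene toward a trend over all genes tested. The variance behind a p-value thus does not come from the samples of that gene alone. Alternatives covered DESeq2, other scaling, filters, windows, thresholds and leaving out each replicate. Scripts were tested on simulated data.

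The factors and lists were chosen with earlier results of these data known. Named were all 8 factors, up to 4 called genes per list with the largest change and no overlap of stages, list genes not measured, Rnf8 and Scml2, and the 3 nearest genes of Mybl1, Tcfl5 and Rfx2. Gtsf1 and the genes that share regions with a factor were named after their values were seen.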

Additional observations from a re-analysis of the deposited data

How the results depend on the processing

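Of 77 values of single factors under the planned RNA-seq alternatives, 70 stayed on the same side of the threshold with the same sign, as did 71 of 77 for H3K27ac. The sign of Rfx2 RNA turned without PS replicate 2 (0.13) and without RS replicate 1 (0.14), in a range of -0.18 to 0.14, and that of Tcfl5 H3K27ac without PS replicate 1 (0.029, in a range of -0.27 to 0.029), while that of Rfx3 H3K27ac turned without centring (-0.10). Mybl2 RNA was also called with no filter on low counts (0.95, adjusted p = 0.0223), and Rfx4 RNA with the row of most reads (-2.64, adjusted p = 7.48e-05). Rfx3 RNA was 2.91 with the row of most reads and 1.56 with limma on log2(RPKM + 1), and Mybl2 H3K27ac was 1.92 (adjusted p = 0.216) at a −log10 q of at least 5. Leaving out 1 library gave 2 to 3 factors higher in RNA, 0 to 1 higher in H3K27ac, 1482 (without PS replicate 2) to 3172 promoters lower, 30 to 48 PS regions at the factors, 19 to 30 of them overlapped in RS, and 7 to 62 RS regions with no PS region. Promoters of factors called higher numbered 0 without centring, where 714 of all promoters were higher, and 3 (Mybl2 and Rfx3 added) when a peak was required in all 4 samples. With limma on log2(RPKM + 1), 3 other germ cell transcription factors were higher in place of 6. PS regions at the factors, those overlapped and RS regions with no PS region were 14, 9 and 4 at a −log10 q of at least 5, and 53, 41 and 63 with the peaks of either replicate. With 50% reciprocal overlap, 3 PS regions of 21 were overlapped. The cause was not tested.

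Same-numbered samples were not treated as pairs, since no label says that a number is a mouse. The deviations of the 2 pairs correlated by 0.225 in RNA-seq and 0.0058 in H3K27ac, which does not settle whether a number is a mouse. With the replicate number as a block, Mybl2 RNA was called (1.04, adjusted p = 0.0043), the unequal change of the Rfx4 rows was not (adjusted p = 0.071), and comparing regions within each number gave, on average over both numbers, 46 PS regions, 31.5 of them overlapped, and 42 RS regions with no PS region.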
